A study of Canis lupus familiaris with 8 samples.

Results

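Dog hemangiosarcoma cells that carried a control hairpin were set against the same cell line with no treatment, to describe how far that control lay from the untreated line. The comparison held 3 libraries of JuB2 cells with scramble short hairpin RNA (shRNA) expression and 1 library of non-treated JuB2 cells. Genes entered when they reached 5 TPM (a gene's share of all transcripts after division by its length, scaled to a common total) or more in all 3 scramble libraries or in the untreated library, which held for 9484 of 30424 listed genes. Of these, 8828 passed through both groups, 118 through scramble alone and 538 through the untreated library alone, and 8523 carried a single gene symbol. Of the genes at the threshold, MINDY4 lay just inside with 5.47, 4.09 and 6.47 TPM in scramble and 5 TPM in untreated cells, and FANCB just outside with 6.18, 4.99 and 5.69 TPM in scramble and 4.13 TPM in untreated cells.

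The study sequenced RNA from 8 libraries of cultured dog cells and asked how KDM2B, a histone demethylase of a Polycomb complex, bears on hemangiosarcoma, a malignant tumour with endothelial features. The scramble group was JuB2 with a scramble hairpin (3 libraries), and the untreated group was JuB2 alone (1 library). Beside them stood 3 JuB2 libraries labelled as KDM2B knockdown by hairpin, here the KDM2B-labelled libraries, and 1 library labelled EC, of non-treated normal canine endothelial cells. All JuB2 libraries came from 1 cell line, and the labels do not give the hairpin's sequence, the vector, how it was delivered, any drug selection, the passage or the culture dates.

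A short hairpin RNA is transcribed in the nucleus, exported by exportin 5, cut by DICER1 with its partner TARBP2 and loaded into an Argonaute protein, which then uses the strand as a guide to silence matching transcripts. A scramble hairpin passes through the same steps but is designed to match no transcript, so that it can serve as the reference for a silencing hairpin. Cells that carry one have usually also been through delivery of a vector and often through selection and further growth, so the hairpin, its delivery, selection, time in culture and an ordinary difference between cultures or RNA preparations cannot be told apart here.

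Because the untreated group was a single library, no test was possible and none was made. A gene was called apart when all 3 scramble libraries lay on the same side of the untreated library and the gap between the untreated library and the nearest scramble library was larger than the whole range of the 3 scramble libraries, on the log2(TPM + 1) scale. It was called 2-fold apart when the mean difference was also at least 1 on that scale. The rule measures the spread of the scramble group only, and the spread of untreated JuB2 cells is unknown. The labels do not say that the scramble libraries came from separate cultures, so their spread may be technical.

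The scramble libraries lay close to each other and a little farther from untreated cells. The median absolute difference per gene was 0.14 on the log2(TPM + 1) scale in each of the 3 pairs of scramble libraries, and 1.39% to 1.61% of genes differed at least 2-fold within a pair. Between a scramble and the untreated library the median absolute difference was 0.22 to 0.23, and 2.68% to 2.86% of genes differed at least 2-fold. No scramble library stood apart from the others of its group. Between the KDM2B-labelled libraries and the untreated library the median was 0.43 to 0.45, with 13.3% to 14.4% of genes at least 2-fold different. Genes above 0 numbered 12684 to 12773 in scramble and 12639 in untreated cells, and sequencing depth is unknown since TPM keeps none.

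**Figure D1:**
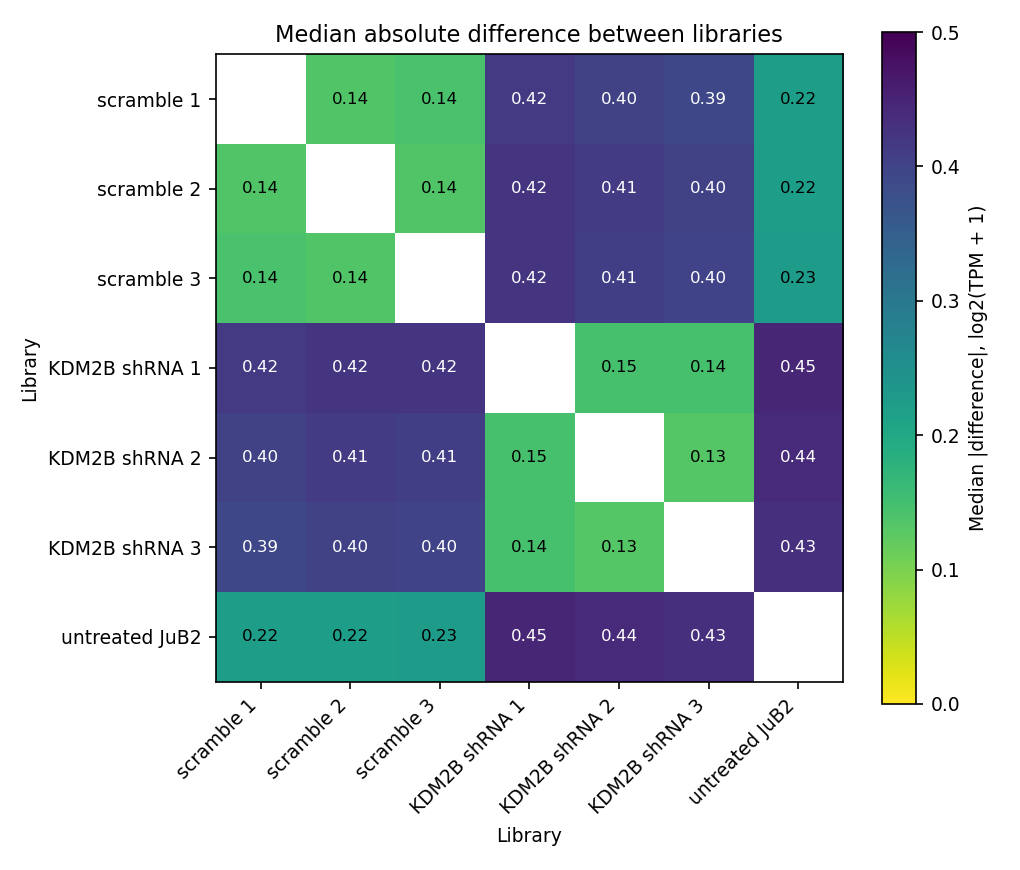
Median absolute difference between pairs of JuB2 libraries over the 9484 compared genes, in log2(TPM + 1), with rows and columns for 3 scramble, 3 KDM2B-labelled libraries and 1 untreated library. Scramble pairs differ by 0.14, scramble and untreated by 0.22 to 0.23, and the KDM2B-labelled libraries by 0.43 to 0.45 from untreated cells.

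Small differences were common and large ones rare. All 3 scramble libraries were higher than the untreated library in 3061 genes, 32.3% of those compared, and lower in 3317, or 35.0%. Scramble was apart and higher in 1455 genes (15.3%) and apart and lower in 1417 (14.9%). The median difference over all compared genes was -0.017, in values that are scaled to the same total in every library, and the median absolute difference among apart genes was 0.36. Of the 2872 apart genes, 2757, or 96.0%, differed less than 2-fold.

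Only 53 genes (0.559%) were 2-fold apart and higher in scramble, and 62 (0.654%) were 2-fold apart and lower. Many of them entered through the group where they were high, which favours a difference: among the 8828 genes that passed in both groups, 26 were 2-fold higher and 31 were 2-fold lower. On the log2(TPM + 1) scale, differences of at least 4-fold were reached by 6 genes higher and 14 lower in scramble, but 2 of the higher and 12 of the lower ones had a library listed at 0, which can be a failed estimate. Of the 2-fold genes, 4 higher and 11 lower ones reached 100 TPM in the higher group. A single symbol was carried by 43 of the higher and 44 of the lower genes.

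**Figure D2:**
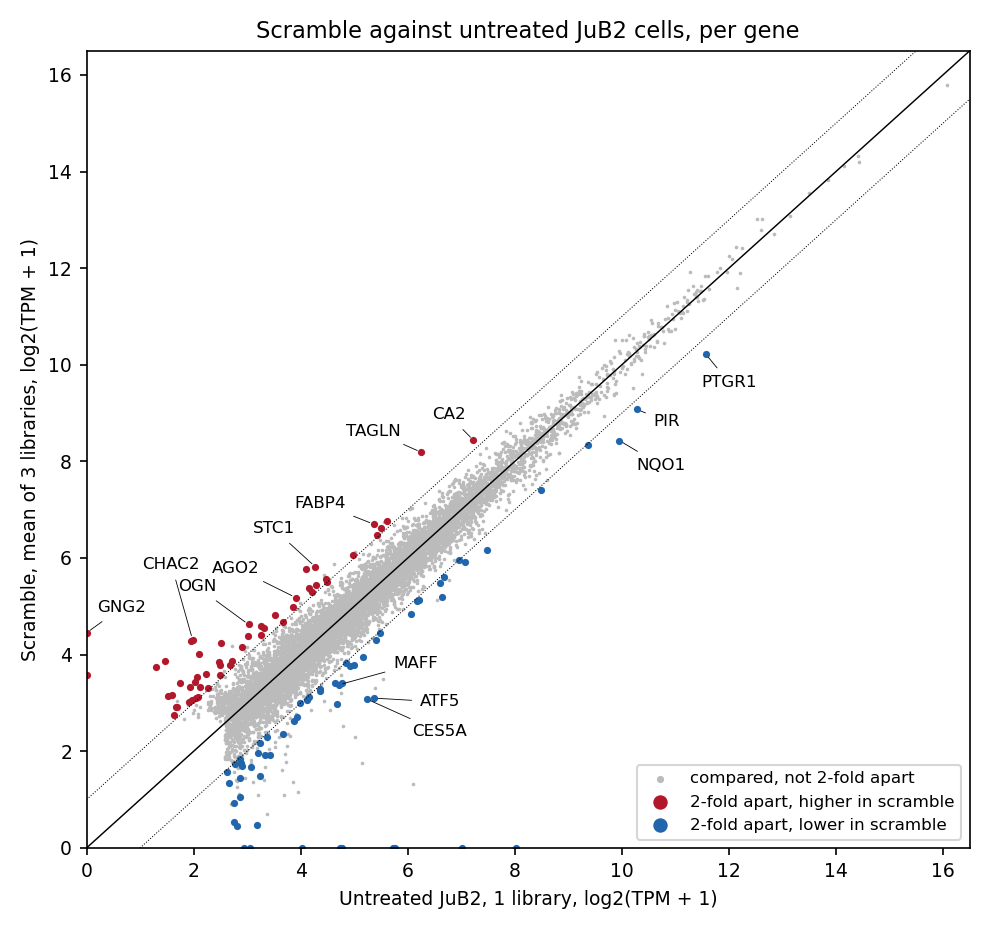
Mean log2(TPM + 1) of the 3 scramble libraries (vertical) against the single untreated JuB2 library (horizontal), 1 point per compared gene, with the line of equality and dotted lines 1 unit above and below. Red points are the 53 genes 2-fold apart and higher in scramble, blue points the 62 that were lower, and TAGLN, CA2, PTGR1, PIR and NQO1 stand out among abundant genes.

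Of the machinery that handles a hairpin, 2 of 9 compared genes were apart and higher (22.2%, against 15.3% over all compared genes) and 1 was lower (11.1%, against 14.9%), and AGO2 stood far above its level in untreated cells. AGO2, the Argonaute that can cut a target transcript (ENSCAFG00000001196), was at 36.3, 34.5 and 35.2 TPM in scramble, against 13.97 TPM in untreated cells. The scramble values lay within 2 TPM of each other and all above the untreated one, and the difference of 1.28 was 2.53-fold. In the KDM2B-labelled libraries, AGO2 was at 61.4, 56.4 and 51.5 TPM, above every scramble library. TNRC6A, a scaffold that Argonautes recruit to repress a transcript, was higher at 10.8, 11.3 and 11.1 TPM in scramble and 7.67 TPM in untreated cells. AGO3 was lower, with 5.67, 5.27 and 5.77 TPM in scramble and 7.74 TPM in untreated cells.

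The other 6 compared genes of the hairpin list were not apart. DICER1, which cuts the hairpin, was at 10.2, 9.98 and 10.2 TPM in scramble and 10.4 TPM in untreated cells, so the untreated value lay above the scramble range by less than that range. TARBP2, its partner, was at 31.3, 40.9 and 38.4 TPM in scramble and 25.1 TPM in untreated cells, all 3 scramble values being higher but spread over more than the gap. XPO5, AGO1, PRKRA and TNRC6C did not meet the rule either. Of the 13 genes on the list, 10 had a row and 9 were compared. KDM2B itself, which the scramble hairpin is not meant to touch, was apart and lower at 14.01, 15.01 and 12.9 TPM in scramble, against 17.6 TPM in untreated cells, a difference of -0.32. It only just met the rule, with a gap of 0.22 against a scramble range of 0.20, and was lost with a gap over 2 times that range. The KDM2B-labelled libraries held 20.9, 19.7 and 18.2 TPM, so the targeted gene was not lower there than in untreated cells.

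Among single-symbol genes above 0 in all 4 libraries, those with the largest differences in favour of scramble came from several functions. CHAC2, an enzyme that breaks down glutathione, was at 17.8, 13.3 and 28 TPM in scramble, against 2.94 TPM in untreated cells, with a difference of 2.33. RER1, which returns proteins to the endoplasmic reticulum from the Golgi, was at 12.8, 20.2 and 23.8 TPM in scramble and 2.87 TPM in untreated cells, a difference of 2.32. Both were spread widely within scramble, yet every scramble library was above the untreated one.

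TAGLN, the actin-binding protein transgelin of smooth muscle and activated fibroblasts, combined a large difference with abundance. It was at 292, 309 and 273 TPM in scramble and 75.04 TPM in untreated cells, a 3.88-fold difference (1.94 on the log2 scale). The KDM2B-labelled libraries were at 60.4, 38.2 and 52 TPM, which is below untreated cells, so scramble was the high group among JuB2 libraries. CA2, a cytosolic carbonic anhydrase, had the same order, with 360.1, 341 and 337 TPM in scramble, 67.1, 68.8 and 63.01 TPM in the KDM2B-labelled libraries and 149 TPM in untreated cells. OGN, the matrix proteoglycan osteoglycin, stood at 19.9, 29.4 and 22.6 TPM in scramble, at 2.51, 1.91 and 0.46 TPM in the KDM2B-labelled libraries and at 7.14 TPM in untreated cells.

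Secreted and vascular factors were also among the named genes. STC1, a secreted glycoprotein hormone, was at 59.8, 54.2 and 52.8 TPM in scramble, 89.9, 66.8 and 78.5 TPM in the KDM2B-labelled libraries and 18.3 TPM in untreated cells, and scramble differed from the last by 1.55. PDGFA, a ligand of the platelet-derived growth factor receptors, was at 10.96, 14.2 and 15.4 TPM in scramble and 4.53 TPM in untreated cells. ANGPT1, a ligand of the endothelial receptor TIE2, was at 6.33, 7.51 and 6 TPM in scramble, 2.54, 0.91 and 2.59 TPM in the KDM2B-labelled libraries and 2.18 TPM in untreated cells. For PDGFA and ANGPT1 the untreated level was under 5 TPM, so both entered through scramble alone and a difference was built into their entry, as it was for CHAC2, RER1, EFHD1, ING2, PUS10 and EFCAB2.

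FABP4 and RBP4 carry lipids. FABP4, a fatty acid binding protein of fat cells and capillary endothelium, was at 103, 104 and 102 TPM in scramble and 40.1 TPM in untreated cells, which made it 2.56-fold higher with almost no spread in scramble. It was at 148, 143 and 142 TPM in the KDM2B-labelled libraries. RBP4, the carrier of retinol, was at 28.6, 21.9 and 32.1 TPM in scramble and 10.5 TPM in untreated cells. DEPTOR, an inhibitor of the mTOR kinase, was at 34.1, 27.4 and 31.1 TPM in scramble and 13.5 TPM in untreated cells, and was chosen after its values were seen, as was CA2.

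The remaining named genes that were higher in scramble were EFHD1 (a difference of 1.91), the chromatin reader ING2 (1.72), the pseudouridine synthase PUS10 (1.68), LYRM9 (1.67), EFCAB2 (1.47) and the synaptic scaffold HOMER3 (1.34). EFHD1, a calcium-binding protein of mitochondria, was at 17.8, 14.5 and 13.5 TPM in scramble and 3.29 TPM in untreated cells. LYRM9 was at 60.1, 72.2 and 35.6 TPM in scramble and 16.2 TPM in untreated cells, and was listed at 0 in 1 KDM2B-labelled library. For PUS10 the call rested on 7.6, 6.97 and 16.9 TPM in scramble and 2.34 TPM in untreated cells, and it was lost with a pseudocount of 5, with a gap over 2 times the scramble range and with the rule of 3 SD of scramble.

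**Figure D3:**
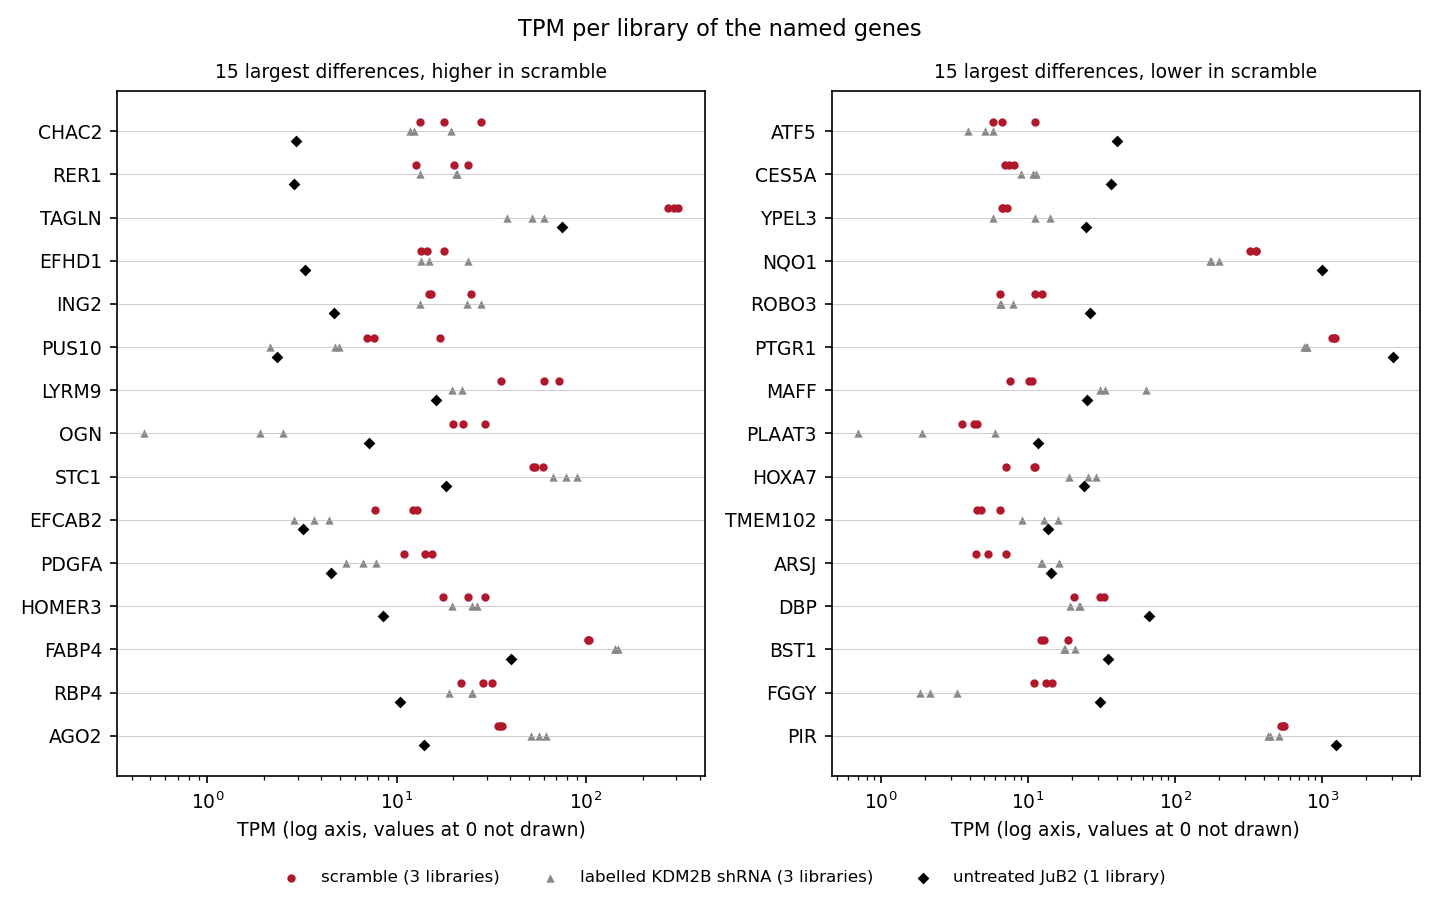
TPM per library on a log axis for the 15 named genes with the largest differences in each direction, with scramble (red, 3 libraries), KDM2B-labelled libraries (grey, 3) and untreated JuB2 (black, 1). Every red point lies right of the black one in the left panel and left of it in the right panel. Grey points lie on the scramble side for AGO2 and NQO1 and on the other side of untreated cells for TAGLN, OGN and MAFF.

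Of the single-symbol genes lower in scramble and above 0 in all 4 libraries, ATF5 had the largest difference. ATF5, a transcription factor of the amino acid and mitochondrial stress responses, was at 11.2, 6.63 and 5.78 TPM in scramble, against 40.4 TPM in untreated cells, a 5.14-fold difference (-2.27). CES5A, a carboxylesterase, was at 6.98, 8.03 and 7.41 TPM in scramble and 36.6 TPM in untreated cells (-2.15). YPEL3, a small zinc-binding protein linked to growth arrest, was at 7.16, 6.64 and 6.73 TPM in scramble and 24.7 TPM in untreated cells. In all 3 genes the KDM2B-labelled libraries also lay below the untreated library, between 3.89 and 14.14 TPM.

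The 3 most abundant of the 2-fold lower genes were PTGR1, PIR and NQO1. PTGR1, a reductase of prostaglandins and reactive aldehydes, was at 1216, 1170.3 and 1194 TPM in scramble and 3032 TPM in untreated cells, 2.54-fold lower (-1.34). PIR, an iron-binding nuclear protein, was at 548, 526 and 542 TPM in scramble and 1242 TPM in untreated cells (-1.20). NQO1, the quinone reductase that is a standard readout of the transcription factor NRF2, was at 356, 356 and 322 TPM in scramble and 989.95 TPM in untreated cells (-1.52). PTGR1 and PIR are also known as NRF2 targets but were not on the oxidative stress list. In the KDM2B-labelled libraries PTGR1 was at 795, 770.4 and 750.1 TPM, PIR at 508, 443 and 429 TPM and NQO1 at 173, 199.98 and 175 TPM, all below the lowest scramble library. The library labelled EC held 1201 TPM of NQO1.

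Among the other named lower genes, MAFF, a small Maf protein that pairs with NRF2 and related factors, was at 10.2, 7.57 and 10.6 TPM in scramble and 25.2 TPM in untreated cells. The KDM2B-labelled libraries, at 63.7, 31.02 and 33.5 TPM, lay above untreated cells. HOXA7, a homeobox factor, was at 7.07, 11.2 and 10.99 TPM in scramble and 24.1 TPM in untreated cells, and DBP, a transcription factor of circadian output, was at 30.8, 20.7 and 32.6 TPM in scramble and 66.1 TPM in untreated cells. The guidance receptor ROBO3 (-1.35), the phospholipase PLAAT3 (-1.31), the sulfatase ARSJ (-1.24), TMEM102 (-1.24), the NAD-cleaving surface enzyme BST1 (-1.23) and the carbohydrate kinase FGGY (-1.21) completed them. ARSJ, PLAAT3 and TMEM102 entered through the untreated library alone. FGGY was at 14.5, 13.2 and 10.96 TPM in scramble, lower again at 3.31, 2.16 and 1.83 TPM in the KDM2B-labelled libraries, and at 31 TPM in untreated cells.

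Of the oxidative stress list, 10 of 19 compared genes were lower in scramble (52.6%, against 14.9% over all compared genes), 2 were higher (10.5%, against 15.3%) and 7 were not apart, with a median difference of -0.25. NQO1 had the largest difference, followed by SRXN1, which repairs oxidised peroxiredoxins, at 90.8, 98.9 and 71.3 TPM in scramble and 144 TPM in untreated cells. TXNRD1, thioredoxin reductase, was at 298, 294 and 274 TPM in scramble and 454 TPM in untreated cells. FTL, the ferritin light chain, was at 3160.3, 3086 and 3039 TPM in scramble and 4564 TPM in untreated cells. These 3 genes had no scramble library near the untreated value. TXNIP, SQSTM1, ME1, GCLC, PRDX1 and PGD were also lower, with differences of -0.71 to -0.21. The higher genes were NFE2L2, which encodes NRF2 itself, with 531, 539 and 545 TPM in scramble and 476 TPM in untreated cells, and HMOX1, heme oxygenase 1, with 67.4, 61.2 and 64.8 TPM in scramble and 53.7 TPM in untreated cells. Summed over the list, scramble held 7579, 7400 and 7284 TPM and untreated cells 10124 TPM. In these bulk libraries, less transcript per cell and fewer cells with a high level cannot be told apart.

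Replication genes lay on the other side. Of 39 compared genes for DNA replication, 22 were apart and higher in scramble (56.4%, against 15.3% over all compared genes), none lower and 17 not apart, and 32 had a positive mean difference, with a median of 0.39. All 39 passed the threshold in both groups. RFC3, a subunit of the clamp loader, had the largest difference, with 80.7, 93.2 and 90.9 TPM in scramble and 41.7 TPM in untreated cells (1.06). RFC5, of the same complex, was at 64.5, 67.6 and 67.5 TPM in scramble and 37.9 TPM in untreated cells, and RPA2, which coats single-stranded DNA, was at 113, 115 and 112 TPM in scramble and 68.5 TPM in untreated cells. TK1, the thymidine kinase of S phase, was at 205, 179.8 and 180.3 TPM in scramble and 114 TPM in untreated cells.

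All 6 subunits of the MCM helicase, which opens the double helix, were apart and higher. MCM5 was at 95.3, 102 and 93.1 TPM in scramble and 60.02 TPM in untreated cells (0.68), and MCM2 at 149.9, 153 and 141 TPM in scramble and 94.7 TPM in untreated cells (0.64). MCM7, MCM4 and MCM3 differed by 0.50, 0.49 and 0.45, and MCM6 by 0.15. The sliding clamp PCNA, an abundant transcript, was higher by 0.19, at 671, 666 and 673 TPM in scramble and 587 TPM in untreated cells. Added over the list, replication genes held 3534, 3548 and 3388 TPM in scramble, against 2788 TPM in untreated cells. The KDM2B-labelled libraries held 4273, 4061 and 4090 TPM. Of 30 core histone genes 9 had a row and 7 were compared, with 1 higher (14.3%, near the share over all compared genes) and none lower.

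Of 36 compared mitosis genes, 17 were apart and higher (47.2%, against 15.3% over all compared genes), 1 lower (2.78%, against 14.9%) and 18 not apart. The mean difference was positive in 35 (median 0.30). Of the 36, 35 passed in both groups, the 17 higher ones included. TTK, a kinase of the spindle checkpoint, was at 20.4, 20.02 and 19.9 TPM in scramble and 8.52 TPM in untreated cells (1.15). MAD2L1, which holds the checkpoint, was at 126, 126 and 135 TPM in scramble and 64.8 TPM in untreated cells (0.98). CCNA2, cyclin A2, was at 85.5, 82.8 and 82.7 TPM in scramble and 50.7 TPM in untreated cells, and MKI67, the proliferation marker Ki-67, at 23.9, 24.3 and 21.5 TPM in scramble and 15.2 TPM in untreated cells. The 1 lower gene was the checkpoint kinase BUB1, at 62.1, 62.2 and 62.1 TPM in scramble and 68.1 TPM in untreated cells, a difference of only -0.13.

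Of 16 compared genes of the G1 to S transition, 6 were higher (37.5%, against 15.3% over all compared genes), 1 lower (6.25%, against 14.9%) and 9 not apart. Among the 13 that passed in both groups 4 were higher and 1 lower. CCND1, cyclin D1, was at 14.2, 13.98 and 13.6 TPM in scramble and 8.97 TPM in untreated cells, and CDK4, its kinase, at 416, 404 and 421 TPM in scramble and 361 TPM in untreated cells. The activator E2F2 (0.64) and the repressors E2F7 (0.49) and E2F8 (0.51) were apart as well, but E2F2 and E2F7 entered through scramble alone. CCNE2, cyclin E2, was the lower one (-0.08).

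DNA damage signalling and homologous recombination, the process named in the study's title, had 10 of 35 compared genes higher (28.6%, against 15.3% over all compared genes), 2 lower and 23 not apart (median 0.07), and among the 30 that passed in both groups 8 were higher and 2 lower. FANCM, a helicase of the Fanconi pathway, was at 7.53, 7.83 and 8.21 TPM in scramble and 4.12 TPM in untreated cells (0.79). EXO1, the nuclease that resects broken ends, was at 13.8, 12.4 and 13.6 TPM in scramble and 7.5 TPM in untreated cells, and BRCA2, a mediator of recombination, was at 5.67, 5.91 and 6 TPM in scramble and 3.21 TPM in untreated cells. FANCM and BRCA2 entered through scramble alone. CLSPN, a checkpoint adaptor at the fork, was at 12.7, 13.2 and 13.9 TPM in scramble and 8.92 TPM in untreated cells. In the KDM2B-labelled libraries, BRCA2 was at 11.7, 9.62 and 9.44 TPM, EXO1 at 21.7, 23.9 and 20.8 TPM and CLSPN at 29.3, 31.1 and 28.3 TPM, above every scramble library. UBE2T, the ubiquitin-conjugating enzyme of the Fanconi pathway (-0.32), and MDC1, a mediator at damaged chromatin (-0.14), were the lower ones.

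Genes for ribosome assembly had 14 of 34 compared members higher (41.2%, against 15.3% over all compared genes), 2 lower (5.88%, against 14.9%) and 18 not apart, with a median of 0.11. NOP16, a nucleolar assembly factor, was at 71.7, 79.8 and 74.4 TPM in scramble and 48.8 TPM in untreated cells, and nucleolin (NCL) at 343, 334 and 330.1 TPM in scramble and 260.5 TPM in untreated cells. NOP56, a core protein of the particle that methylates ribosomal RNA, went the other way at 171, 164 and 167 TPM in scramble and 249.7 TPM in untreated cells (-0.58), while its partner NOP58 was higher by 0.11. Of 57 compared cytosolic ribosomal protein genes, 13 were higher (22.8%, against 15.3% over all compared genes), 7 lower (12.3%, against 14.9%) and 37 not apart. Their median of 0.03 turned negative under quantile normalization. RPL7 was at 5594, 5470.4 and 5600.4 TPM in scramble and 4482 TPM in untreated cells, and RPL5 at 1131, 1085 and 1087 TPM in scramble and 1307 TPM in untreated cells.

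**Figure D4:**
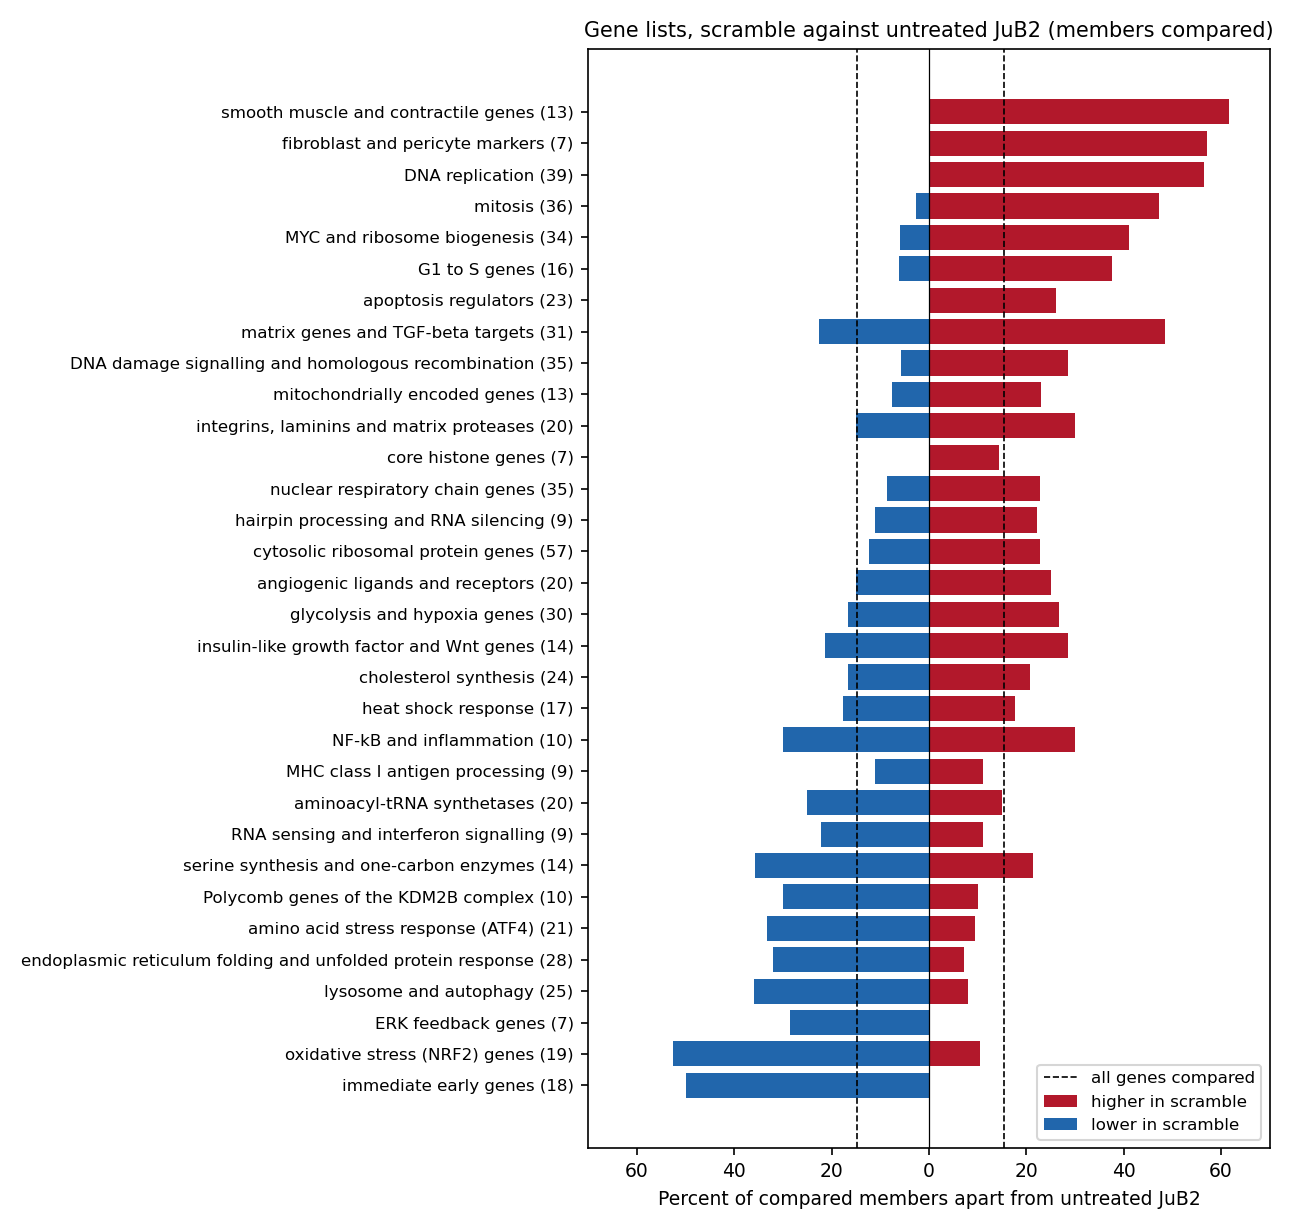
Percent of the compared members of each gene list that were apart and higher (red, right) or apart and lower (blue, left) in scramble relative to untreated JuB2, for the lists described here with at least 7 compared members (number in brackets). Dashed lines mark the shares over all compared genes, 15.3% higher and 14.9% lower. Contractile, fibroblast and replication genes extend farthest to the right, and immediate early and oxidative stress genes farthest to the left. Lists can share genes, as the fibroblast and matrix lists do.

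Contractile genes had the largest share on the higher side: of 13 compared, 8 were apart and higher (61.5%, against 15.3% over all compared genes), none lower and 5 not apart. The median was 0.49, and among the 10 that passed in both groups 7 were higher. Of the 13, 3 had a negative mean difference, the lowest at -1.38, but none of these was apart. The list had 26 genes, 23 of them with a row, and 10 with a row stayed under the threshold. After TAGLN came CNN1, calponin of smooth muscle, at 71.9, 65.7 and 60.3 TPM in scramble and 30.6 TPM in untreated cells (1.08). ACTA2, smooth muscle actin, was at 18.5, 21.3 and 18.9 TPM in scramble and 11.1 TPM in untreated cells, and MYL9, a regulatory myosin light chain, at 177, 167 and 157 TPM in scramble and 109.9 TPM in untreated cells. The tropomyosins TPM1 and TPM4 were higher by 0.49 and 0.50, with TPM1 at 307, 309 and 300.2 TPM in scramble and 218 TPM in untreated cells. The KDM2B-labelled libraries lay on both sides of untreated cells. ACTA2, at 6.59, 5.13 and 8.22 TPM, and TPM1, at 112, 115 and 105 TPM, were lower there than in untreated cells. CNN1, at 65.3, 61.2 and 65.02 TPM, and MYL9, at 116, 119 and 118 TPM, were higher there than in untreated cells. The median difference of the compared members between the KDM2B-labelled libraries and untreated cells was 0.10.

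Of 31 compared matrix genes and TGF-beta targets, 15 were higher (48.4%), 7 lower (22.6%) and 9 not apart (median 0.09), so both shares were above those over all compared genes. COL4A1 and COL4A2, the chains of basement membrane collagen, differed by 0.77 and 0.61, with COL4A1 at 44.5, 43.3 and 45.2 TPM in scramble and 25.6 TPM in untreated cells. COL12A1, a fibril-associated collagen, was at 52.2, 49.8 and 52.3 TPM in scramble and 31.2 TPM in untreated cells, and COL5A1 at 114, 105 and 109 TPM in scramble and 69.3 TPM in untreated cells. COL1A1, the main fibrillar collagen, was at 287, 284 and 281 TPM in scramble and 201 TPM in untreated cells.

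The lower matrix genes included enzymes and ligands. LOXL4, a lysyl oxidase that crosslinks collagen, was at 39.5, 42.9 and 42.1 TPM in scramble and 77.6 TPM in untreated cells (-0.89), and LOXL2, its relative, at 213, 209 and 211 TPM in scramble and 288 TPM in untreated cells. The ligands TGFB2 and TGFB3 were lower by smaller amounts, -0.35 and -0.41. Fibroblast and pericyte markers had 4 of 7 compared genes higher (57.1%, against 15.3% over all compared genes) and none lower. The higher ones were COL1A1, COL1A2, COL3A1 and THY1. COL1A1, COL1A2 and COL3A1 were also on the matrix list, so the 2 lists are not separate results. The call of COL3A1 did not hold under quantile normalization. The whole fibroblast and pericyte list summed to 1396 to 1413 TPM in scramble and 1146 TPM in untreated cells. Its defining markers DCN, FAP, RGS5 and TWIST2 were listed at 0 in all 4 libraries. RPL32, a ribosomal protein gene that every cell uses, was also listed at 0 in all 4, so a listed 0 does not show that a gene was not expressed. A part of other cell types in these differences was not tested.

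Proteases, adhesion and angiogenic genes were mixed. TIMP1, an inhibitor of matrix proteases, was at 191, 181 and 164 TPM in scramble and 109 TPM in untreated cells, and PLAU, urokinase, at 29.5, 23.6 and 21.8 TPM in scramble and 14.6 TPM in untreated cells. Of 20 compared integrin, laminin and protease genes, 6 were higher (30%, against 15.3% over all compared genes) and 3 lower (15%, against 14.9%). NRP2, a co-receptor for vascular endothelial growth factors, was lower at 103, 99.2 and 102 TPM in scramble and 158 TPM in untreated cells, as was HEY1, a Notch target, at 5.8, 9.39 and 8.51 TPM in scramble and 16.8 TPM in untreated cells. Of 20 compared angiogenic genes 5 were higher (25%, against 15.3% over all compared genes) and 3 lower (15%, against 14.9%). Among the 17 that passed in both groups 3 were higher and 3 lower. The insulin-like growth factor and Wnt list had 4 higher (28.6%, against 15.3%) and 3 lower (21.4%, against 14.9%) of 14, and 2 higher and 3 lower among the 8 that passed in both groups. AXIN2, a feedback inhibitor of Wnt signalling, was at 5.99, 5.49 and 5.64 TPM in scramble and 2.08 TPM in untreated cells. The Wnt effector TCF7 was at 57, 53.1 and 52.95 TPM in scramble and 35.4 TPM in untreated cells. AXIN2 entered through scramble alone. IGFBP7 (-0.56) and DKK3 (-0.54) were lower.

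Immediate early genes, which are transcribed within minutes of a stimulus such as serum, had 9 of 18 compared members lower in scramble (against 14.9% over all compared genes), none higher and 9 not apart, with a median of -0.36. JUN, a subunit of the AP-1 transcription factor, was at 198, 176 and 216 TPM in scramble and 387 TPM in untreated cells (-0.98). EGR1 was at 21.8, 21.7 and 22.8 TPM in scramble and 34.5 TPM in untreated cells, and KLF4 at 11.3, 7.97 and 10.9 TPM in scramble and 18.6 TPM in untreated cells. IER3, CCN1, KLF10, CCN2, FOSL2 and IER2 were the other members, at -0.57 to -0.20. In the KDM2B-labelled libraries IER2 stood at 108, 133 and 114 TPM, above untreated cells, and EGR1 at 32.01, 47.05 and 33.1 TPM, on both sides of them. JUN, at 228, 228 and 220 TPM, and KLF4, at 3.54, 3.67 and 3.78 TPM, were below untreated cells there. The median difference of the compared members between the KDM2B-labelled libraries and untreated cells was -0.16. Of 7 compared feedback genes of the ERK kinase pathway, 2 were lower (28.6%, against 14.9% over all compared genes) and none higher. The lower ones were DUSP6, a phosphatase of ERK, at 24.5, 21.1 and 17.7 TPM in scramble and 43.8 TPM in untreated cells, and ETV5 (-0.55).

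Several chaperones of the endoplasmic reticulum were lower in scramble. Of 28 compared genes of folding and the unfolded protein response, 9 were lower (32.1%, against 14.9% over all compared genes), 2 higher and 17 not apart, with a median of -0.18. HSPA5, the chaperone BiP, was at 519, 474 and 479 TPM in scramble and 806 TPM in untreated cells (-0.72), and HYOU1, which works with it, at 182, 169 and 163 TPM in scramble and 292 TPM in untreated cells (-0.77). HSP90B1, the chaperone GRP94, was at 679, 675 and 651 TPM in scramble and 926 TPM in untreated cells. CALR, calreticulin, was on the other side at 407, 423 and 399 TPM in scramble and 320.4 TPM in untreated cells, with ERO1B (0.24).

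Of the ATF4 list, the response to amino acid shortage, 7 of 21 compared genes were lower (33.3%, against 14.9% over all compared genes). Of the others, 2 were higher (9.52%, against 15.3%) and 12 not apart (median -0.10). After ATF5 came ASNS, asparagine synthetase, at 190.1, 207 and 196 TPM in scramble and 329.5 TPM in untreated cells (-0.74). ATF4 itself was at 976, 962 and 933 TPM in scramble and 1096 TPM in untreated cells. In the KDM2B-labelled libraries ASNS was lower still, at 68.5, 62.7 and 60.4 TPM. The serine and one-carbon enzymes had 5 lower (35.7%, against 14.9% over all compared genes) and 3 higher (21.4%, against 15.3%) of 14. PSAT1, of serine synthesis, was at 688, 683 and 680.02 TPM in scramble and 953 TPM in untreated cells. MTHFD2, of mitochondrial folate metabolism, was at 230.4, 219 and 222 TPM in scramble and 161 TPM in untreated cells. Of 20 compared aminoacyl-tRNA synthetases 3 were higher (15%, near the 15.3% over all compared genes) and 5 were lower (25%, against 14.9%), with 12 not apart.

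**Figure D5:**
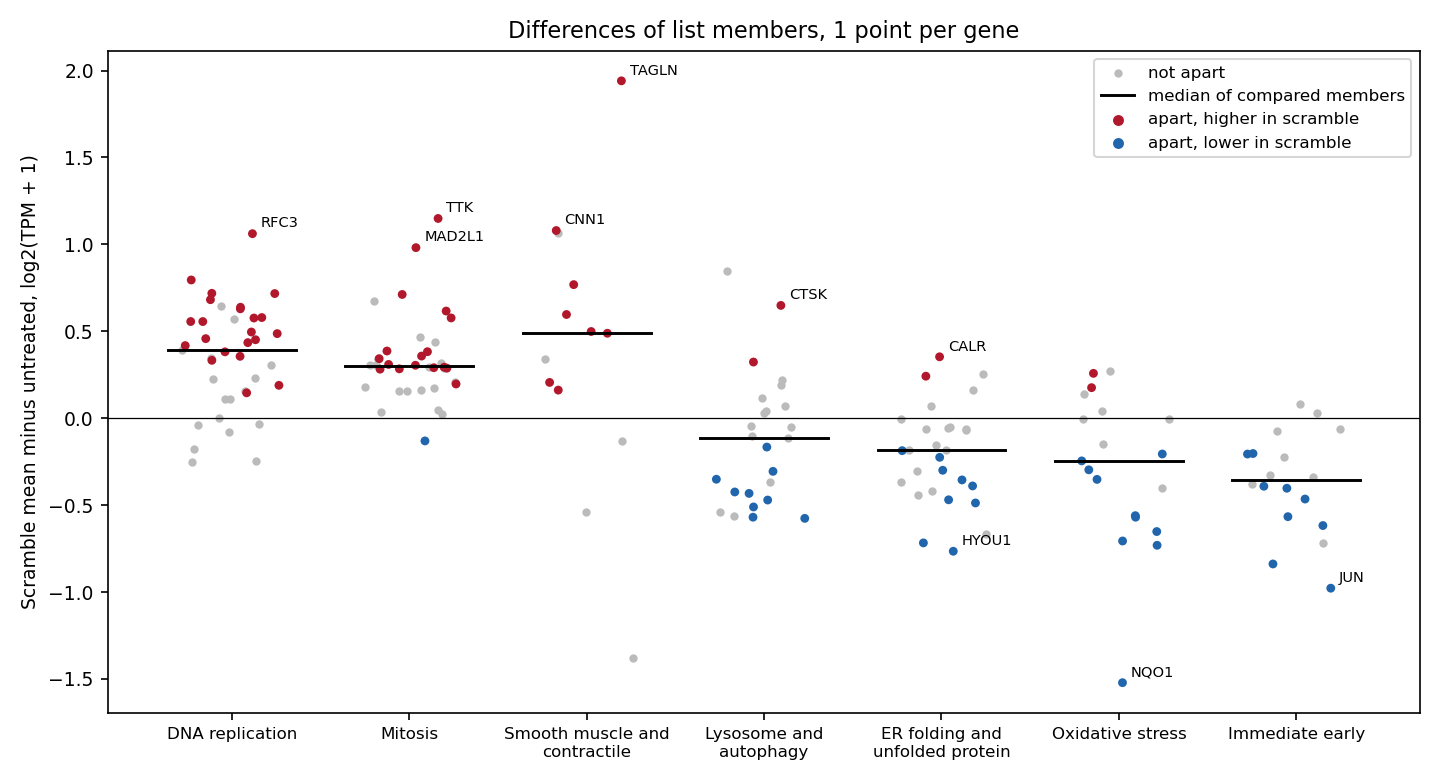
Mean difference (scramble minus untreated, log2(TPM + 1)) of each compared member of 7 gene lists, 1 point per gene with random sideways spread, red and blue for genes apart and higher or lower in scramble, grey for the others, black bars for medians. Medians were 0.39 for replication, 0.30 for mitosis, 0.49 for contractile, -0.12 for lysosome, -0.18 for endoplasmic reticulum, -0.25 for oxidative stress and -0.36 for immediate early genes.

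Lysosome and autophagy genes had 9 of 25 compared members lower (against 14.9% over all compared genes), 2 higher and 14 not apart (median -0.12). LAMP2, a lysosomal membrane protein, was at 259.7, 258 and 260.1 TPM in scramble and 369.9 TPM in untreated cells, and SQSTM1, the autophagy receptor p62 that is also on the oxidative stress list, at 168, 149 and 158 TPM in scramble and 236 TPM in untreated cells. TFEB, the transcription factor that drives lysosomal genes, was at 8.31, 7.46 and 7.42 TPM in scramble and 12 TPM in untreated cells. CTSK, the collagen-degrading protease cathepsin K, was higher at 108, 92.3 and 95.3 TPM in scramble and 62.3 TPM in untreated cells.

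Genes of the interferon response, which foreign RNA can trigger, were mostly too low to compare. Of 25 interferon-stimulated genes with a row, 19 stayed under the threshold in scramble and untreated cells. Of the 6 compared, 1 was higher and 1 lower (16.7% each, against 15.3% and 14.9% over all compared genes), and 4 were not apart. The higher was SAMD9L, at 15.8, 15.1 and 15.2 TPM in scramble and 13.4 TPM in untreated cells, and the lower ISG20, an exonuclease, at 4.21, 5.35 and 4.03 TPM in scramble and 7.92 TPM in untreated cells. ISG20 entered through the untreated library alone, and among the 5 that passed in both groups 1 was higher and none lower. Summed over the list, scramble held 147, 141 and 125 TPM and untreated cells 128 TPM, so the untreated value lay inside the scramble range. The KDM2B-labelled libraries held 619.6, 906 and 536 TPM. Of 9 compared genes that sense RNA or carry the interferon signal, MAVS (-0.25) and JAK1 (-0.22) were lower (22.2%, against 14.9%) and IKBKE (0.11) higher (11.1%, against 15.3%). MAVS was not apart under a trimmed mean or quantile scaling.

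In the NF-kB and inflammation list 3 of 10 compared genes were higher and 3 lower (30% each, against 15.3% and 14.9% over all compared genes). BIRC3, an inhibitor of cell death that NF-kB induces, was at 12.7, 14.3 and 10.7 TPM in scramble and 6.84 TPM in untreated cells, and the chemokine CXCL8 at 8.29, 8.45 and 6.64 TPM in scramble and 13.9 TPM in untreated cells. Apoptosis regulators had 6 of 23 higher (26.1%, against 15.3% over all compared genes) and none lower, among them the initiator caspase CASP8 (0.48) and the protective BCL2L1 (0.31). Of 17 compared heat shock genes, 3 were higher and 3 lower (17.6% each), near the shares over all compared genes, and 11 were not apart. HSPA8, the constitutive cytosolic chaperone, was at 747, 747 and 698 TPM in scramble and 1188 TPM in untreated cells. HSP90AA1 was at 799, 819.9 and 799 TPM in scramble and 601 TPM in untreated cells. The MHC class I list had 1 of 9 compared genes higher, CALR, and 1 lower, B2M (11.1% each, under the shares over all compared genes). B2M, the light chain of MHC class I, was at 687, 729 and 689.6 TPM in scramble and 848 TPM in untreated cells.

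Genes of energy metabolism lay on both sides. Glycolysis and hypoxia genes had 8 of 30 compared members higher (26.7%, against 15.3% over all compared genes) and 5 lower (16.7%, against 14.9%), with a median of 0.09. GAPDH was at 1632, 1634 and 1504 TPM in scramble and 1355 TPM in untreated cells. ADM, a hypoxia-induced peptide, was at 113, 116 and 110.4 TPM in scramble and 152 TPM in untreated cells. Cholesterol synthesis had 5 higher (20.8%) and 4 lower (16.7%) of 24, near the shares over all compared genes. The enzyme FDPS (0.61) and SREBF1 (-0.29), a transcription factor of lipid synthesis, were on opposite sides. Nuclear genes of the respiratory chain had 8 higher (22.9%, against 15.3%) and 3 lower (8.57%, against 14.9%) of 35, with a median of 0.12. The largest difference was that of ATP5MC1, a subunit of the ATP synthase, at 182, 184 and 182 TPM in scramble and 113 TPM in untreated cells.

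The 13 mitochondrially encoded genes made up 18.1% ± 0.786 of all TPM in scramble (SD, n = 3) and 19.4% in untreated cells, with 17.3%, 18.2% and 18.9% in the scramble libraries, all below the untreated one. Their totals were 173459, 181563 and 189184 TPM in scramble and 193995 TPM in untreated cells. ATP8 alone was at 51993, 58095 and 61526 TPM in scramble and 68797 TPM in untreated cells, a mean difference of -11592 TPM. ATP8 was not apart, so the lower share rested largely on a gene that did not meet the rule. Among the 13 genes 3 were higher (23.1%, against 15.3% over all compared genes), 1 lower (7.69%, against 14.9%) and 9 not apart. CYTB, of respiratory complex III, was at 3842, 3837 and 3868 TPM in scramble and 2477 TPM in untreated cells (0.64), and ND2, of complex I, at 8372, 8295 and 8333 TPM in scramble and 6308 TPM in untreated cells (0.40). ATP6, of the ATP synthase, was at 18503, 18314 and 19486 TPM in scramble and 21988 TPM in untreated cells, which made it the apart gene with the largest negative difference in TPM itself. Of the other genes with large TPM differences, EEF1A1, the elongation factor, was at 3157, 3191 and 3219 TPM in scramble and 2564 TPM in untreated cells, and UBB, a ubiquitin gene, at 4124, 3696 and 3672 TPM in scramble and 4715 TPM in untreated cells. The call of ND5 did not hold under a trimmed mean scaling, and that of ND2 did not hold under quantile normalization.

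Among the 10 compared subunits of the Polycomb complex that holds KDM2B, RING1, YAF2 and KDM2B were lower (30%, against 14.9% over all compared genes). BCOR was higher (10%, against 15.3%) and 6 were not apart. RING1, a ubiquitin ligase of the complex, was at 74.7, 71.6 and 71.1 TPM in scramble and 94.95 TPM in untreated cells. BCOR, a corepressor subunit, was at 10.8, 11.97 and 12.2 TPM in scramble, 18.5, 17.7 and 14.99 TPM in the KDM2B-labelled libraries and 6.55 TPM in untreated cells.

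Markers of other cell types and of the endothelial lineage were low or close between the groups, apart from the contractile and fibroblast genes already given. Of 25 endothelial markers with a row, 13 were listed at 0 in scramble and untreated cells alike, among them PECAM1, CDH5, VWF, TIE1 and CD34. As with RPL32, a listed 0 does not show that a gene was not expressed. EGFL7, FLT1, ENG and LYVE1 were compared and none was apart. The list summed to 76.4, 69.0 and 67.0 TPM in scramble and 73.2 TPM in untreated cells. It summed to 97.65 TPM in the library labelled EC, so a low sum was not particular to JuB2. That library, labelled as normal endothelial cells, summed to 25348 TPM over the contractile list and 21532 TPM over the fibroblast and pericyte list. Untreated JuB2 cells held 1197 and 1146 TPM over these 2 lists. Whether the cells of the EC library match their label was not tested. Of 14 leukocyte markers with a row, 9 were listed at 0 in all 4 libraries. Of the 3 compared, LCP1 (-0.14) and CORO1A (-0.44) were lower (66.7%, against 14.9% over all compared genes), CORO1A not under any of the 3 other scalings. The leukocyte list summed to 1665 to 1863 TPM in scramble and 1912 TPM in untreated cells, nearly all from the row named CD79A, which was also at 3056 TPM in the library labelled EC. Of 8 epithelial markers with a row, ESRP1 alone was compared and it was not apart, and CDH1, GRHL2, KRT18 and OVOL1 were listed at 0.

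Some genes were listed at 0 on one side, and such a 0 can be a failed estimate, so no fold is given. GNG2, a G protein gamma subunit, was listed at 0 in untreated cells and at 25.5, 23.02 and 15.5 TPM in scramble, and it was at 0 in 2 of 3 KDM2B-labelled libraries. In the other direction 7 genes with at least 10 TPM in untreated cells were listed at 0 in every scramble library, at 15.16 to 257.6 TPM in untreated cells. None of the 7 had a symbol, and 6 were also at 0 in all KDM2B-labelled libraries, ENSCAFG00000029104 (257.6 TPM in untreated cells) and ENSCAFG00000041803 (128 TPM) included.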

How the data were processed

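Per the labels' protocols, column-purified RNA went into NEBNext Ultra libraries. The authors deposited 1 TPM value per gene and library for 30424 genes, of which 15448 carry a symbol of their own. Per the submitters' processing notes, the tools are STAR and RSEM and the dog build is CanFam3.1, with their roles and versions not stated. Not given in the sources used here are strand use, read sharing between similar genes and filters. TPM keeps no depth, so no count model, counting interval or detection floor was used, and the precision behind a value is unknown.

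From the deposited values, log2(TPM + 1) was taken for 3 scramble libraries and 1 untreated JuB2 library, with groups from the labels. Genes at 5 TPM or more in all scramble libraries or in the untreated one were compared by the position rule given with the results. With 1 untreated library there was no test and no p-value. The pseudocount of 1 shrinks differences of low genes, and folds given are ratios of mean TPM. Of 1053 genes in 37 lists, 880 had a row. The genes compared, the lists and the naming rule were chosen with earlier results of these data known. Named were the 15 largest 2-fold differences in each direction (single symbol, above 0 in all 4 libraries, 10 TPM or more in the higher group), up to 4 apart members of each list, the hairpin genes and KDM2B, genes listed at 0 on one side, the 5 largest TPM differences in each direction, and the genes at the threshold. Further list members that were apart are named as examples chosen after their values were seen. Some genes that the rule takes, and 1 list, are not reported here. The libraries labelled KDM2B knockdown and EC are given as values only. Alternatives covered the scaling, the pseudocount, the filter, the rule for the spread, the fold and leaving out each scramble library. No per-sample column was left unused (0 columns). Python 3.11.15, pandas 2.3.3, numpy 2.4.6 and matplotlib 3.10.9 were used.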

Additional observations from a re-analysis of the deposited data

How the results depend on the processing

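No paired analysis was possible because the untreated group has 1 library. The counts of apart genes (1455 higher, 1417 lower) and of 2-fold genes (53 higher, 62 lower) stayed within 1.5 times under a trimmed mean of log ratios, quantile normalization, rescaling without mitochondrially encoded genes, a pseudocount of 0.1 and a mean difference over 3 SD. The 2-fold counts were 20 higher and 33 lower with a pseudocount of 5, 91 and 152 with a minimum of 1 TPM, 34 and 41 with a minimum of 10 TPM, 102 and 152 with no filter, and 6 and 14 at 4-fold. A gap over 2 times the scramble range left 768 higher and 686 lower apart genes, with 38 2-fold lower. With no demand on the gap there were 3061 higher and 3317 lower, with 101 2-fold lower. Leaving out 1 scramble library gave 2281 to 2413 higher and 2290 to 2506 lower apart genes and 80 to 88 higher and 84 to 94 lower 2-fold genes, since 2 libraries span a smaller range than 3. The median difference over all genes was -0.039 after rescaling without mitochondrially encoded genes and 0.016 with no filter, against -0.017. Of 159 named genes that were apart, 0 changed sign under the scalings (of 155 when mitochondrially encoded genes were left out). The log2 scale factors of the trimmed mean were only 0.012, -0.015 and -0.033 for scramble libraries 1, 2 and 3, so that scaling could hardly change a sign. The settings other than the scalings could not change a sign, because every scramble library of an apart gene lies on the same side of the untreated one. The scalings ended 2 to 5 of these calls, the wider gap 44 and the 3 SD rule 7. List medians changed sign under at least 1 setting for interferon, RNA sensing, MHC class I, heat shock, mitochondrially encoded, ribosomal protein, angiogenic, insulin-like growth factor and Wnt, and Polycomb genes. Replication, mitosis, contractile, oxidative stress and immediate early medians kept theirs in all settings run. The contractile median, 0.49 in the main setting, ranged from 0.16 to 0.50 over the other settings. Depth is unknown, and untreated cells have no measured spread.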
